A study of Arabidopsis thaliana with 5 samples.

Results

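ATSBT5.2 (locus AT1G20160) encodes a subtilase, a serine protease of the plant subtilisin family, and its transcript was measured in sorted root cells of Arabidopsis thaliana with and without brassinolide (BL). It was taken by its symbol in the array's annotation, which gives it 1 probe set, 261224_at, among 22746 probe sets and 13350 genes that have a probe set of their own. The treated seedlings, at an age of 6 days, were kept for 2 h in liquid medium containing 10 nM BL, a strongly active natural brassinosteroid. Control seedlings of the same age were kept equally long in medium with ethanol as mock. All seedlings carried the reporter pBRL3:nlsYFP, in which the promoter of the brassinosteroid receptor gene BRL3 drives a nuclear yellow fluorescent protein. Protoplasts were made from primary root tips, those with fluorescence were sorted by flow cytometry, and their polyA RNA was hybridised to Affymetrix ATH1 arrays, 2 of BL and 3 of control. The cells measured are thus those in which that promoter is active and which survive digestion and sorting. Each value is a log2 expression value on 1 array, so a difference of 1 is a 2-fold difference. ATSBT5.2 was chosen by its BL minus control difference on these arrays, so its own difference is given as a description and carries no test.

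Subtilases are made as inactive precursors, lose an inhibitory propeptide on their way through the secretory pathway, and act mostly in the cell wall space, where many of them cut precursors of signalling peptides. In Arabidopsis, SBT5.2 is also known as CRSP, a protease that cleaves the precursor of EPF2, a peptide that limits stomatal formation in leaves, and it can also release the abscission peptide IDA together with SBT4.12 and SBT4.13. A second splice form without the secretion signal stays inside the cell and binds the transcription factor MYB30. RefSeq lists 3 transcripts and 3 proteins for the gene. The gene has 1 value per array here, and which of these transcripts its probe set detects was not analysed.

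ATSBT5.2 was at 5.72 and 5.59 on the BL arrays (replicates 1 and 2), against 8.57, 8.53 and 8.10 on the control arrays (replicates 1 to 3). The BL arrays were both low, the control arrays were all high, and the groups did not overlap. With BL the mean was 5.66 ± 0.0907 (SD, n = 2), against 8.40 ± 0.259 (SD, n = 3) for the controls. The log2 difference was -2.74 ± 0.185 (SE), a level 6.70-fold lower with BL. In bulk RNA, fewer cells that make the transcript and less transcript per cell cannot be told apart.

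In these values, by which the gene was chosen, the separation was wide against the spread within each group. The lowest control value lay 2.38 above the highest BL value, which is 5.09 times the range of the controls (0.468), and the BL values lay within 0.128 of each other. The 6 differences between 1 BL and 1 control array ran from -2.98 to -2.38, or from a 7.87-fold to a 5.21-fold lower level. The control SD of ATSBT5.2, 0.259, was close to the median control SD over all probe sets, 0.264, and the BL SD of 0.0907 was close to the corresponding median of 0.0816. The values of ATSBT5.2 are 5 different numbers, whereas 44.7% of all probe sets have the same number on at least 2 arrays, as the summary by median polish can produce with few arrays. Such probe sets enter both median SDs, and probe sets of a level like that of ATSBT5.2 were not compared.

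**Figure D1:**
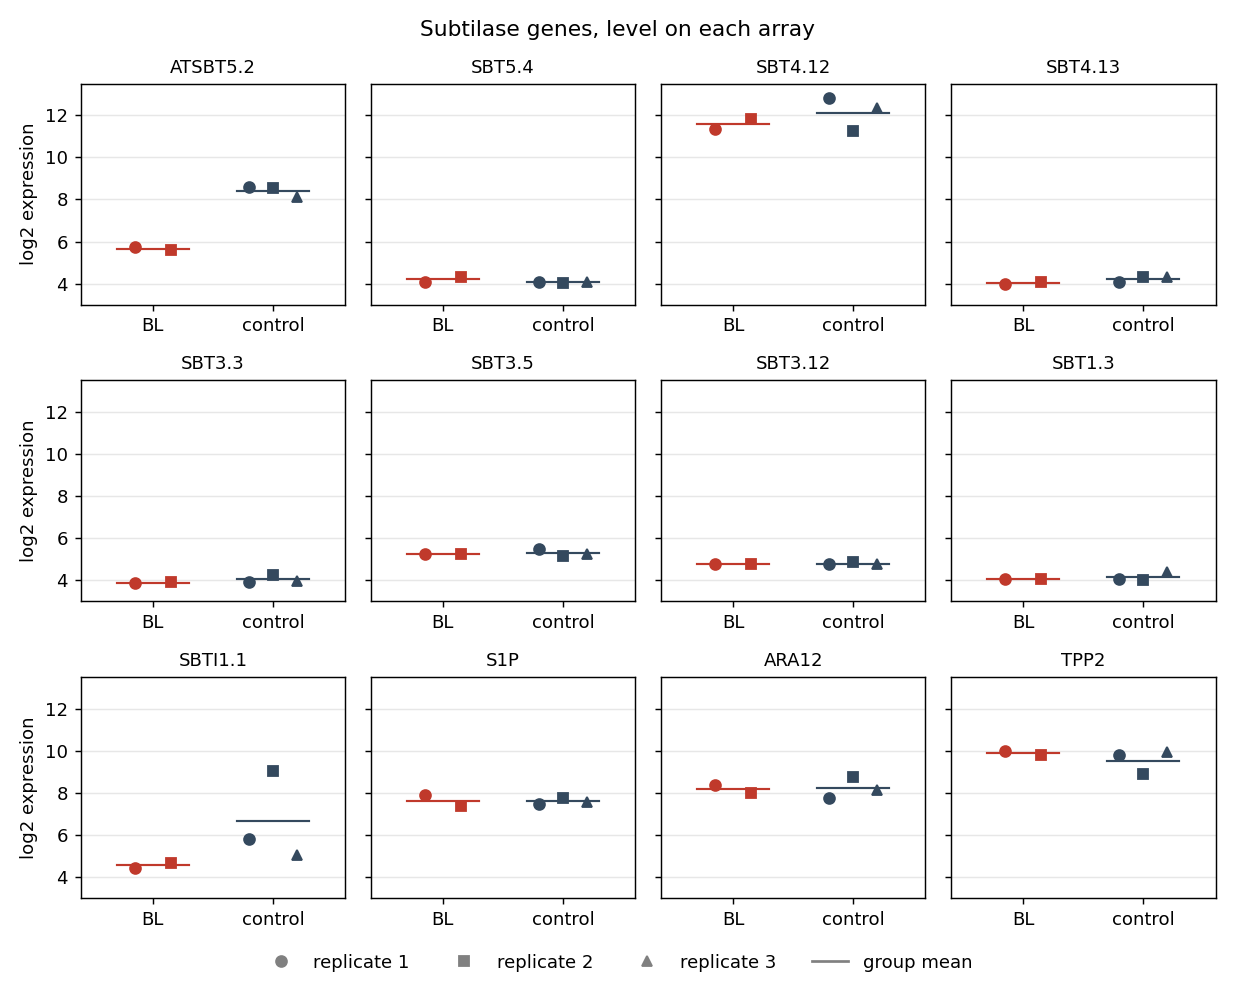
Log2 expression of ATSBT5.2 and 11 other subtilase genes on each array, BL left of control; points are arrays, their shape gives the replicate number and the bar is the group mean. The BL values of ATSBT5.2 (5.72 and 5.59) lie apart from its control values (8.10 to 8.57), while most other panels show overlapping groups and SBTI1.1 has 1 control array at 9.04.

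Among all probe sets, both BL values lay below all 3 control values for 2218, or 9.75%, and ATSBT5.2 is one of these by the way it was chosen. Counted by the mean difference, 15 of 22746 probe sets were as low as ATSBT5.2 or lower, itself included, and 8 of the 13513 probe sets that name 1 gene. The 7 single-gene probe sets with a lower difference had control SDs of 1.38 to 2.85. Counted instead by the distance from the lowest control to the highest BL value, 2 probe sets in all, and 1 of the single-gene ones, reached the 2.38 of ATSBT5.2, itself included. The largest such distance among the 7 genes with a lower mean difference was 1.59. The genes next to ATSBT5.2 in the order of mean differences show what their values rest on. AT3G18260, just lower with a difference of -2.79, was at 3.62 and 3.66 with BL, against 3.63, 8.32 and 7.34 in controls 1 to 3. AT5G18970, just higher with -2.73, was at 5.24 and 4.89 with BL, against 6.01, 8.60 and 8.79 in controls 1 to 3. In both of these genes controls 2 and 3 were well above control 1, whereas in ATSBT5.2 control 1 had the highest value of the 3. The counts, distances and contrasts of this paragraph use the values by which ATSBT5.2 was chosen, so they only describe it. The part of differences between arrays in its value was not tested.

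**Figure D2:**
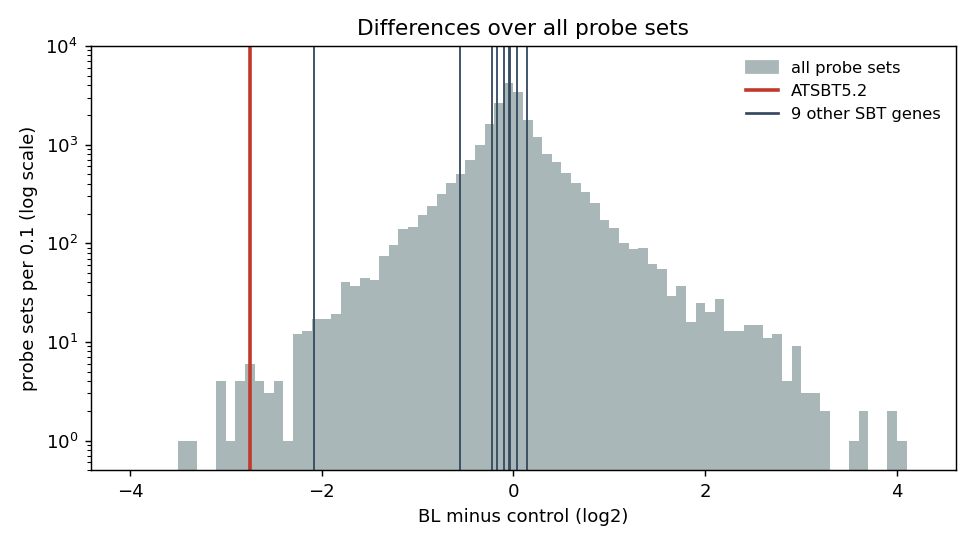
Number of probe sets in each step of 0.1 of the log2 difference between BL and control (y axis on a log scale), with lines at ATSBT5.2 and at the 9 other SBT genes. ATSBT5.2 (-2.74) lies in the sparse lower tail, SBTI1.1 (-2.08) is the next SBT gene, and the other 8 lie between -0.55 and 0.14.

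The arrays themselves were not all alike. Between 2 arrays the Pearson correlation taken over probe sets (which do not count as independent replicates) ran from 0.898 to 0.992, with the lowest values for control 2 and the highest between the BL arrays. The 3' probe sets of bacterial poly-A transcripts, which are spiked into a sample before labelling, had a median of 4.44 and 4.68 on the BL arrays, against 4.71 on control 1, 8.01 on control 2 and 7.39 on control 3. Controls 2 and 3 thus stood apart from the other 3 arrays in these spikes, as a measured property that no label names as a batch. In ATSBT5.2 the BL mean differed from control 1 by -2.91, from control 2 by -2.87 and from control 3 by -2.45. The difference was -2.91 without controls 2 and 3 and -2.74 with them. The hybridisation spike-ins, added after labelling, had medians of 8.02 and 7.68 with BL, against 8.49, 10.5 and 9.41 in controls 1 to 3. All controls were above both BL arrays in this measure, as they were in ATSBT5.2, and its part in the result was not tested.

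**Figure D3:**
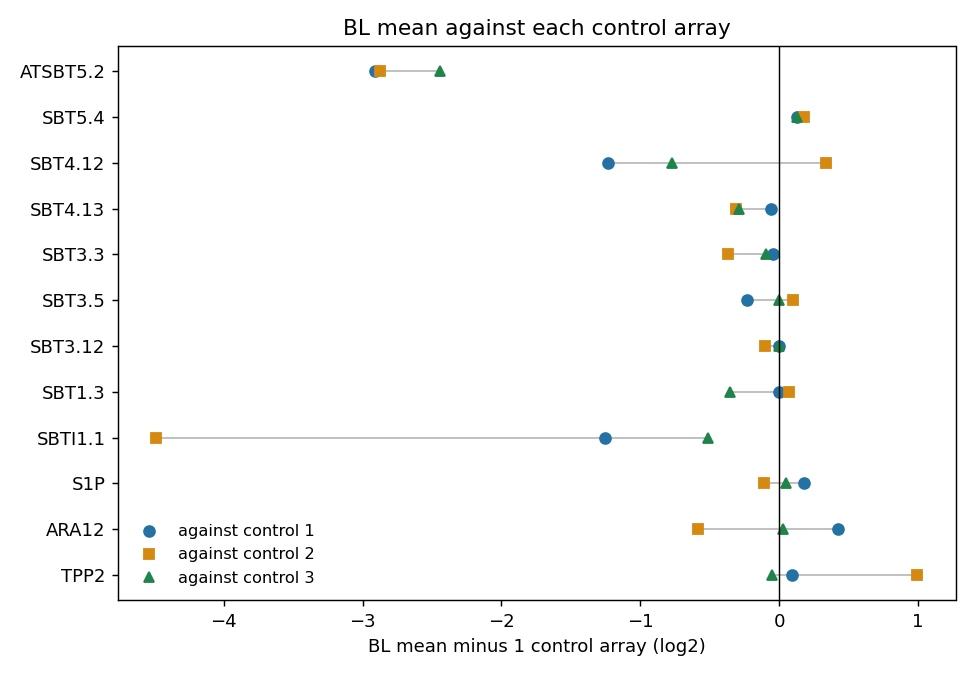
Difference between the BL mean and each single control array (x axis, log2) for 12 subtilase genes, with 1 symbol for each control array and a grey line over their range. The 3 points of ATSBT5.2 lie between -2.91 and -2.45, whereas those of SBTI1.1 run from -4.49 to -0.51 and those of SBT4.12 and ARA12 lie on both sides of 0.

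Markers of the cell types that the sort could hold were few in the annotation, with 7 of 25 listed genes measured. BRL3 itself was not analysed here. The domain and vascular markers BRL1, OPS and PHV had a summed log2 level of 17.9 to 18.5 with BL, against 17.2 to 19.6 in controls. The 3 genes of this list did not move together. BRL1, a receptor related to BRL3, was at 6.04 and 5.76 with BL, against 5.69, 4.10 and 5.80 in controls, a difference of 0.70 ± 0.608 (SE), and OPS, a phloem regulator, differed by -0.07 ± 0.138 (SE). PHV, a transcription factor of vascular patterning, was at 7.73 and 7.47 with BL, against 8.16, 8.42 and 8.82 in controls. PHV was thus below all controls with BL, by -0.87 ± 0.238 (SE), and it did not pass over all probe sets (limma adjusted p = 0.613). BBM, a transcription factor of the stem cell niche, was at 7.07 and 6.25 with BL, against 5.68, 6.30 and 6.25 in controls. The root hair expansins EXPA7 and EXPA18 summed to 9.44 and 10.5 with BL, against 8.55, 12.7 and 9.04 in controls 1 to 3, with control 2 the highest. RCA, a leaf transcript, was between 4.50 and 4.65 with BL, against 4.64 to 4.95 in controls. No marker of the endodermis, cortex, non-hair cells or root cap was among the measured genes. The part of cell composition in the difference of ATSBT5.2 was not tested.

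Among the other subtilases, 9 genes carry an SBT number as symbol or synonym and have a probe set of their own. None passed the test over all probe sets (limma with Benjamini-Hochberg adjustment over 22746 probe sets, threshold 0.05), where 0 probe sets, or 0.00%, passed. At an unadjusted p under 0.05 limma had 1616 probe sets, or 7.10%, and 0 of the 9 genes. Their adjusted p values ran from 0.772 to 0.962. The mean was lower with BL for 7 of the 9 and higher for 2, beside 54.5% of all probe sets with a lower mean and 44.9% with a higher one. Against control 1 alone 6 of the 9 were lower and 2 higher, beside 44.6% of all probe sets that were lower. Their median difference was -0.10, beside -0.02 over all probe sets, and it was -0.05 against control 1 alone.

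Among the genes found by an SBT symbol or synonym, 1 further gene belongs to the fifth subgroup. SBT5.4, whose overexpression in Arabidopsis gives shoots like those of clavata mutants, was at 4.09 and 4.34 with BL, against 4.09, 4.03 and 4.09 in controls. The groups overlapped, and 3 of the 5 arrays share 1 value. Its difference was 0.14 ± 0.113 (SE), with a limma adjusted p of 0.800. It was 0.02 without BL replicate 2 and 0.27 without BL replicate 1, so its size rests on BL replicate 2.

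The 2 proteases that can act on the IDA precursor beside SBT5.2 were both measured. SBT4.12 was at 11.3 and 11.8 with BL, against 12.8, 11.2 and 12.3 in controls 1 to 3. Control 2 was the lowest array and control 1 the highest, so the groups overlapped. The difference was -0.55 ± 0.532 (SE), and the adjusted p from limma was 0.822. It ran from -0.22 without control 1 to -1.0 without control 2. SBT4.13 was at 3.97 and 4.08 with BL, against 4.08, 4.34 and 4.32 in controls, a difference of -0.22 ± 0.124 (SE) with a limma adjusted p of 0.772. BL replicate 2 and control 1 share 1 value in SBT4.13, so its groups touch.

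In the third subgroup, SBT3.3, which takes part in immune priming, was at 3.86 and 3.91 with BL, against 3.93, 4.25 and 3.98 in controls. Both BL arrays lay below all controls, as in 9.75% of all probe sets, but only 0.02 separated the nearest arrays. Its difference was -0.17 ± 0.136 (SE), with a limma adjusted p of 0.802. SBT3.5, which processes a pectin methylesterase in Arabidopsis roots, was at 5.25 on both BL arrays, against 5.49, 5.15 and 5.25 in controls, a difference of -0.04. SBT3.12 was at 4.76 on both BL arrays, against 4.76, 4.86 and 4.76 in controls, a difference of -0.03. In SBT3.5 and SBT3.12 the BL arrays share their value with at least 1 control array.

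The first subgroup held the only other SBT gene with a difference beyond -1. SBTI1.1 (SBT1.1), which can process the precursor of the growth peptide phytosulfokine, was at 4.44 and 4.67 with BL, against 5.81, 9.04 and 5.07 in controls 1 to 3. Both BL arrays were below all controls, and control 2 stood far above the other controls. With BL the mean was 4.56 ± 0.163 (SD, n = 2), against 6.64 ± 2.11 (SD, n = 3) for the controls, a difference of -2.08 ± 1.33 (SE) that did not pass (limma adjusted p = 0.786). Without control 2 the difference was -0.88, so that array decides its size. Against control 1 alone it was -1.25. Control 2 was also the highest array for EXPA7, at 6.52, and for EXPA18, at 6.17, and the part of this in SBTI1.1 was not tested. SBT1.3 was at 4.07 on both BL arrays, against 4.07, 4.0 and 4.42 in controls, a difference of -0.10 with overlapping groups.

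S1P (SBT6.1), a Golgi protease that releases membrane-bound transcription factors, was at 7.88 and 7.38 with BL, against 7.45, 7.74 and 7.58 in controls. Its difference of 0.04 ± 0.197 (SE) was smaller than the spread between arrays. The wider family added ARA12, a subtilase that acts in the release of seed coat mucilage, and TPP2, a large peptidase of the cell interior. ARA12 was at 8.36 and 7.99 with BL, against 7.75, 8.76 and 8.14 in controls, a difference of -0.04 ± 0.349 (SE). TPP2 was at 9.97 and 9.78 with BL, against 9.78, 8.88 and 9.92 in controls, a difference of 0.35 ± 0.37 (SE). Without control 2 the difference of TPP2 was 0.02, so that array decides its size. These 11 genes were found by symbol or synonym. Many subtilases carry a locus name only and are not among them, so the counts do not cover the whole family. Over these 11 genes 8 had a lower mean with BL and 3 a higher one, beside 54.5% and 44.9% of all probe sets, with a median of -0.04. Both BL values were below all controls for 2 of the 11, SBTI1.1 and SBT3.3, beside 9.75% of all probe sets. They were above all controls for 0 of the 11, beside 11.4% of all probe sets.

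Of a list of 15 substrates of SBT5.2, its binding partner, and receptors and regulators of the same stomatal, abscission and defence pathways, 4 were measured. These are 3 transcription factors of the stomatal lineage and 1 stomatal peptide gene, none of which is given here as a substrate or partner of SBT5.2. SPCH, which starts the stomatal lineage, was at 4.19 and 3.91 with BL, against 3.81, 3.91 and 3.87 in controls, a difference of 0.19 ± 0.122 (SE). MUTE, which ends the divisions of that lineage, was at 4.04 and 3.74 with BL, against 3.74, 3.83 and 3.71 in controls, a difference of 0.13 ± 0.127 (SE). In both genes BL replicate 1 was the highest array and the groups were not separated. FAMA (FMA), which acts in guard cell formation, differed by 0.05, and the stomata-promoting peptide gene EPFL9 (STOMAGEN) had 1 value, 3.53, on all 5 arrays. None of the 4 passed over all probe sets (limma adjusted p 0.787 to 1). The substrates EPF2 and IDA and the partner MYB30 were not analysed here.

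The genes whose pattern over the 5 arrays was nearest to that of ATSBT5.2 were found by the Euclidean distance between profiles, each centred on its own mean, over 13512 single-gene probe sets. The profile of ATSBT5.2 itself has a length of 3.03 on this scale, which is the distance of a gene that is flat over the arrays. The nearest was AT1G71695, at a distance of 0.483 and with a Pearson correlation of 0.9886 over the 5 arrays. It was at 5.19 and 4.95 with BL, against 7.48, 7.83 and 7.62 in controls, a difference of -2.57. AT3G53980 came next at 0.621, with 10.3 and 10.6 with BL, against 13.0, 13.3 and 12.3 in controls. Like ATSBT5.2 it had its lowest control value in control 3. AT4G33420 was at a distance of 0.785 and differed by -2.15, and AT5G05960 at 1.02 and differed by -2.02. AT1G48750, AT4G39675, AT4G33550 and AT3G48970 followed at 1.07, 1.08, 1.16 and 1.21, with differences of -2.04, -2.22, -2.04 and -2.28. In all 8 genes both BL values were below all controls, as the choice by likeness makes likely, and these genes share their arrays with ATSBT5.2, so the likeness is a description. Another measure names other genes, since the 8 highest Pearson correlations share 1 gene with these 8, and the 8 smallest distances without controls 2 and 3 share 2.

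None of the 9 other genes found by an SBT name was near this profile. The nearest of them, SBT4.12, was at a distance of 2.74, with 1687 genes closer. The Pearson correlation over the 5 arrays ran from -0.6774 for SBT5.4 to 0.6940 for SBT4.13. SBT1.3, SBT3.3, SBT4.13 and SBT5.4 lay between 3.86 and 4.42 on all arrays, where the lowest value in the data was 2.99. SBT3.12 and SBT3.5 lay between 4.76 and 5.49, and SBTI1.1 between 4.44 and 9.04. S1P lay between 7.38 and 7.88 and SBT4.12 between 11.2 and 12.8, and these brighter genes were not near the profile either. The part of a low level in these distances was not tested.

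**Figure D4:**
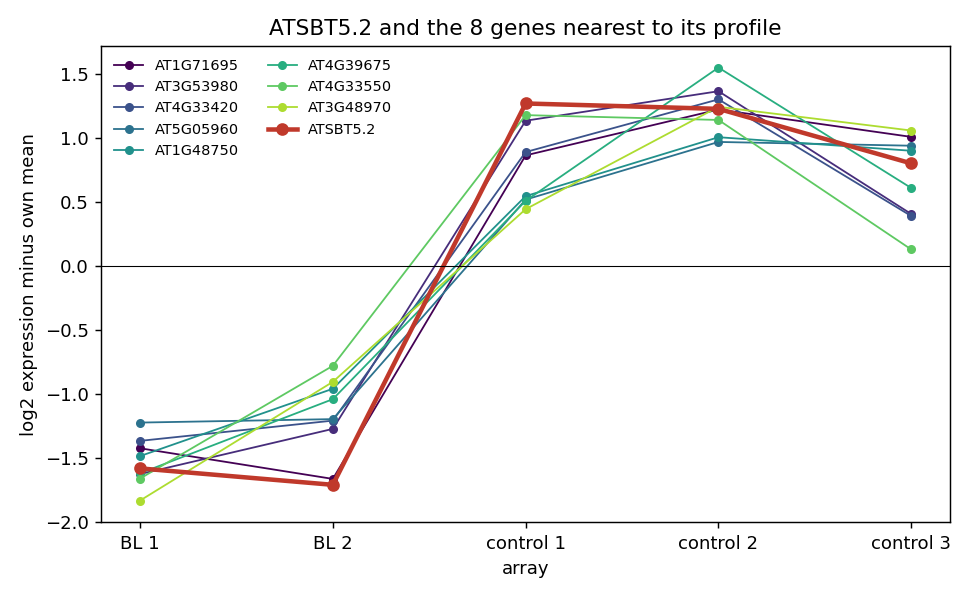
Log2 expression minus each gene's own mean over the 5 arrays (y axis) for ATSBT5.2 (thick line) and the 8 genes nearest to it, by array, BL arrays left of controls. All lines lie below 0 on the BL arrays and above 0 on the controls, and ATSBT5.2 has the highest point on control 1.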

How the data were processed

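Of 5 Affymetrix ATH1 arrays (2 BL, 3 control), grouped and numbered by their titles, the deposited table holds log2 expression values from 2.99 to 14.1, made by the authors with RMA; the tools listed per the submitters' processing notes are affy 1.70.0, limma 3.48.3 and R 4.1.1. RMA corrects background, quantile normalizes arrays and summarises probes by median polish. No source states the log base, which was read as 2 from the range. Of 22810 probe sets, 64 controls were set aside. The platform annotation names 1 gene for 13513, several for 503 and none for 8730 of the rest, and symbols were updated through RefSeq (TAIR10.1), where 13436 had a locus. No coordinates or sequences are printed.

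All probe sets were fitted together with limma 3.58.1 in R 4.3.3 (lmFit, eBayes, treatment as the only term, 3 residual degrees of freedom, Benjamini-Hochberg adjustment), and the fit was tested on simulated data. The array number limits precision, and no label says that replicates are separate cultures, so p-values measure the spread between arrays. A gene with more than 1 probe set was read from its brightest by mean. The symbol psbT holds the same letters but is no subtilase and was left out. The gene and the lists were chosen with earlier results of these data known. Named were ATSBT5.2, every SBT gene, members of the wider lists separated between groups or else the 2 with the largest differences, and the 8 nearest profiles. S1P, FAMA, EPFL9, the genes next in order and the neighbouring genes were named after their values were seen, as were the markers.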

Additional observations from a re-analysis of the deposited data

How the results depend on the processing

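The alternatives were a replicate block, a term for controls 2 and 3, leaving these out, quantile normalization again, a filter on dim probe sets, a floor of 4, array weights, a trended robust variance, an ordinary linear model and leaving out each array. The difference of ATSBT5.2 kept its sign in all 14 and ran from -2.91 with the term for controls 2 and 3 to -2.60 with array weights, which the choice of a gene with separated groups largely fixes. With 1 array left out it ran from -2.89 to -2.66. With the replicate block it was -2.89. The deviations from group means had a correlation of -0.060 between the replicates numbered 1 and of 0.037 between those numbered 2, so the numbers were not taken as pairs. The count of adjusted calls was 0 in all 14, and array weights gave the lowest adjusted p, 0.057. Counts at an unadjusted p under 0.05 went from 674 without BL replicate 1 to 4753 without controls 2 and 3.

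The median of the other SBT genes became -0.55 among probe sets at or above the median level, where fewer of them enter, and the medians of the lists otherwise moved by less than the spread between arrays. For the 14 single genes with a direction to keep, 173 of 187 alternatives kept it, 11 turned it and 3 gave 0, all in SBT3.12 (with a term for controls 2 and 3, without them, and without control 2). EPFL9, at 0 as reported, was at 0.022 with quantile normalization and at 0 in the other 12. ARA12 turned to 0.43 both without controls 2 and 3 and when a term was fitted to them, and to 0.038 with array weights. SBT1.3 turned to 0.033 with the replicate block. With 1 array left out, ARA12 ran from -0.28 to 0.23, S1P from -0.21 to 0.29, SBT1.3 from -0.18 to 0.033, SBT3.5 from -0.12 to 0.050 and MUTE from -0.021 to 0.28. Without a change of sign, SBT5.4 ran from 0.018 to 0.27 and TPP2 from 0.020 to 0.54. None of these was called, and why they turned, the cause, was not tested. Where 1 BL array remained, its spread was taken to equal that of the controls. The planned setting that counts probe sets naming several genes gave no value, since 0 of them name an SBT gene. Signal over background was not assessed.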

Other observations

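The genes beside ATSBT5.2 in the RefSeq order were looked up after its values were seen. AT1G20150, the protein-coding gene before it, was at 4.10 on both BL arrays, against 4.10, 4.45 and 4.10 in controls, a difference of -0.12 ± 0.148 (SE) with a limma adjusted p of 0.847. AT1G20180, the protein-coding gene after it, was at 3.52 and 3.43 with BL, against 3.52, 3.70 and 3.39 in controls, a difference of -0.06 ± 0.129 (SE) with a limma adjusted p of 0.898. Neither neighbour had separated groups. Both carry a locus name only, so the search by SBT name could not tell whether either is a subtilase.

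Some of the other genes with an SBT name lie close together. SBT3.5 and SBT3.3 have 1 protein-coding gene between them, and differed by -0.04 and -0.17. SBT4.12 and SBT4.13 have 3 between them, and differed by -0.55 and -0.22. The values of SBT4.12 ran over 1.57 between the lowest and the highest array and those of SBT4.13 over 0.371, and in neither pair did a gene pass over all probe sets.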
